A study of Mus musculus with 6 samples.

Results

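Among 17920 genes listed in the E13.5 Ybx1 knockdown data, 90 carried symbols of collagen (Col followed by a chain number), laminin (Lama, Lamb or Lamc) or integrin (Itga or Itgb) genes or belonged to a named set of 10 other matrix genes (Fn1, Tnc, Vcan, Ncan, Bcan, Hspg2, Agrn, Nid1, Nid2 and Sparc). The 90 comprised 44 collagen, 11 laminin, 21 integrin and 10 other matrix genes. The other 4 were taken in by the spelling of their symbols only: Col4a3bp, Itgb1bp1, Itgb1bp2 and Itgb3bp encode proteins named after a binding partner, not matrix or receptor subunits. Of the 90, 76 passed a filter on low counts and were tested, and the other 14 had at most 18 estimated counts in any library.

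Messenger RNA was sequenced from 3 control libraries (WT) and 3 libraries with knockdown of Ybx1 (KD), an RNA-binding protein that reads 5-methylcytosine in mRNA. The labels give mouse brain or, in the sample titles, mouse cortex at E13.5, the embryonic day, with the genotype WT or KD. The series text speaks of cortex with or without a deletion. The methods instead describe cultured cortical cells infected with a pLKO.1 lentivirus carrying a short hairpin RNA. The control hairpin was shCtrl, puromycin removed uninfected cells in both groups, and which of the Ybx1 hairpins was used is not stated. The general method for cortical cultures uses dishes coated with poly-D-lysine and laminin protein.

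Library totals lay between 16294635 and 16497505 estimated counts, of which the 90 genes together took 0.256% to 0.324%. Ybx1 itself stood at 15.6%, 14.7% and 25.3% of the WT mean in KD replicates 1, 2 and 3. Its log2 fold change was -2.43 (SE 0.18, adjusted P = 0.000182, edgeR quasi-likelihood test with Benjamini-Hochberg adjustment over 13669 genes, used throughout). Both replicate 2 libraries stood apart from the rest in 4 Y-linked genes (Ddx3y, Eif2s3y, Kdm5d and Uty), with a summed 14.1 estimated counts in WT and 36.0 in KD against 1218 to 1899 in the other 4 libraries. The calls left after removal of this pair are therefore given below for the members and the lists. The labels do not say whether the 3 libraries of a group came from separate cultures, whereas the methods speak of independent experiments.

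The extracellular matrix of the embryonic cortex is built largely of hyaluronan-binding proteoglycans and glycoproteins that surround progenitors and young neurons. Sheets of basement membrane, made of laminin and type IV collagen joined by nidogens and heparan sulfate proteoglycans, lie under the pial surface and around vessels. Integrins are receptors of an alpha and a beta chain that bind these ligands, and the pair of alpha6 and beta1 is a laminin receptor carried by radial glia.

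The levels per transcript length (TPM, as deposited) placed the brain proteoglycans first. Ncan (neurocan) averaged 262 TPM over the 6 libraries, Bcan (brevican) 125 TPM and Agrn (agrin) 105 TPM, followed by Tnc (tenascin C) at 84.9, Vcan (versican) at 68.5 and Sparc at 61.0 TPM. The most abundant receptor chain was Itgb1 at 56.6 TPM. Collagens were lower: Col4a2 led them with 19.1 TPM, ahead of Col4a1 with 14.0 and Col25a1, a membrane collagen of neurons, with 10.4 TPM. Lamc1 was the highest laminin chain at 16.3 TPM. The chains of the type I and III fibrils of connective tissue were near 0, with mean levels of 0.382 TPM for Col1a1, 0.108 for Col1a2 and 0.048 for Col3a1.

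**Figure D1:**
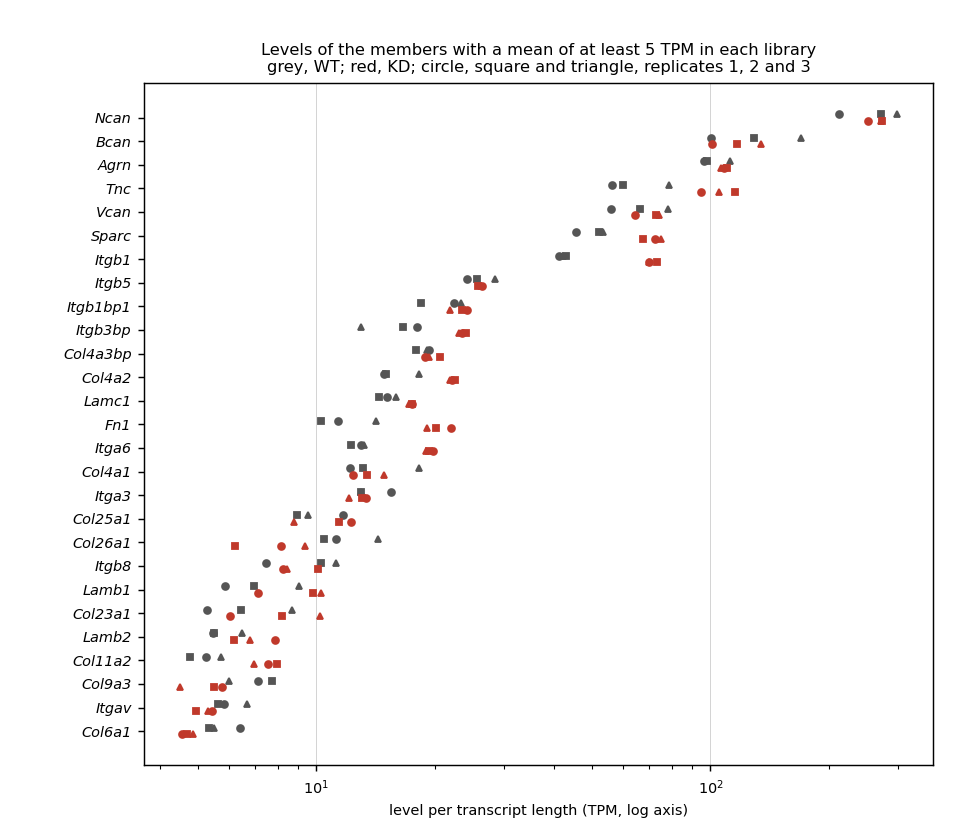
Level per transcript length (TPM, log axis) of every member with a mean of at least 5 TPM, one point per library, WT in grey and KD in red. Ncan sits at the top with a mean of 262 TPM, and the KD points of Itgb1, Itga6, Fn1, Tnc, Sparc and Col4a2 all lie to the right of the WT points.

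Of the 76 tested members, 13 were higher in KD (17.1%) and 2 were lower (2.63%), which leaves 61 below the threshold. Over all 13669 genes tested, 24.0% were called, 12% higher and 11.9% lower. The member median log2 fold change was 0.078, beside -0.0013 for all genes. Counted by libraries alone, 19 members (25.0%) had all KD values above all WT values and 11 (14.5%) had all below, whereas 21.0% and 20.6% of all genes did so. Same-numbered libraries deviated together, and with the replicate number as a block 20 members (26.3%) were higher and 9 (11.8%) lower, against 18.6% and 18.1% of all genes. The block kept all 15 calls. Those it added included Col20a1, Col23a1, Col27a1, Lama2, Lamb1, Itga9 and Itgb3bp as higher and Col16a1, Col5a3, Col6a1, Itga2b, Itgav and Bcan as lower.

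**Figure D2:**
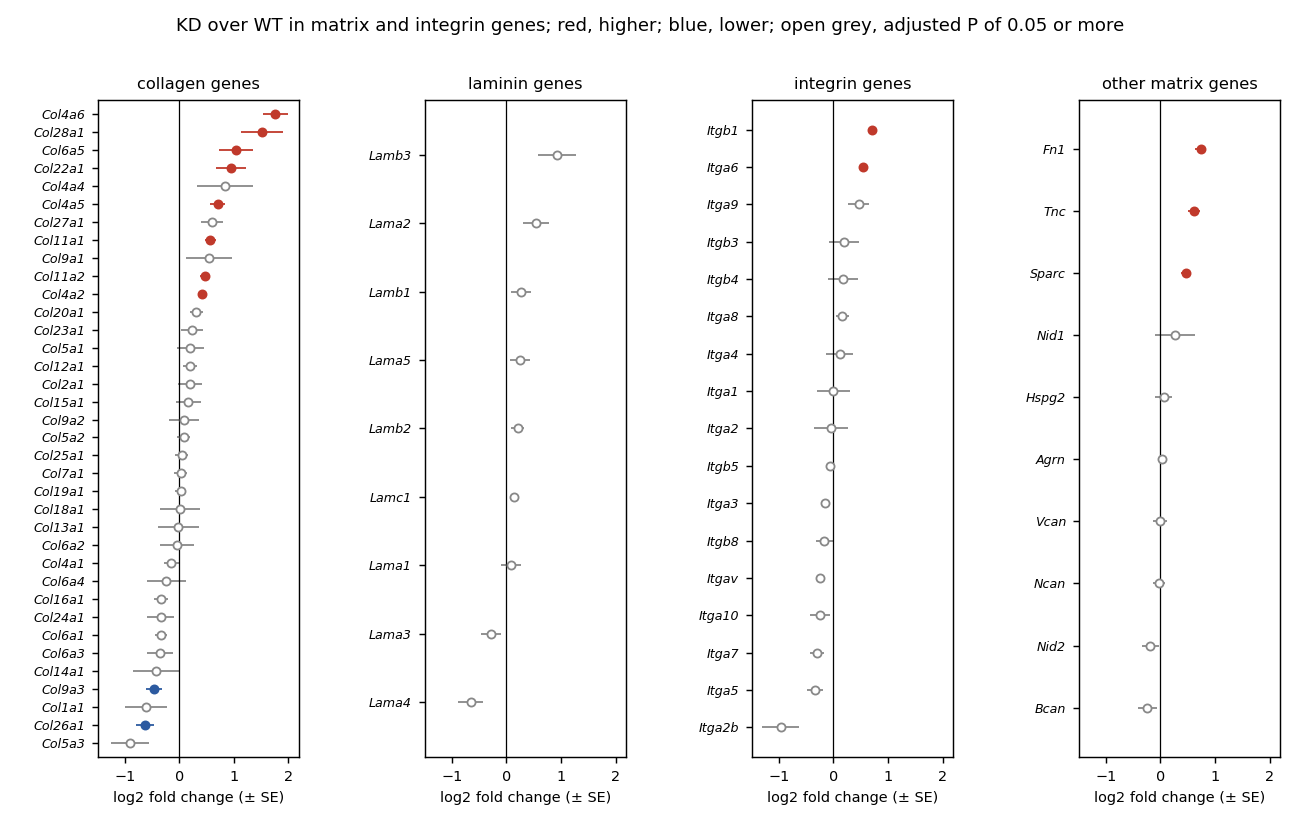
Log2 fold change of KD over WT with its SE for tested collagen, laminin, integrin and other matrix genes (1 tested member is not shown), filled red where higher, filled blue where lower and open grey where the adjusted P was 0.05 or more. Col4a6 lies farthest to the right at 1.75, no laminin point is filled, and Itgb1 and Itga6 are the filled integrin points.

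The integrins split into 2 chains that rose and 15 that did not pass the test. Itgb1 (Entrez Gene 16412, chr8:128685654-128733579, GRCm38), the beta chain shared by most integrins of neural cells, had normalised counts of 81.2, 85.5 and 81.8 CPM (counts on a scale of 1000000 per library after TMM scaling) in WT replicates 1 to 3 and 131, 138 and 135 CPM in KD. The KD libraries were tightly grouped and lay well above the WT libraries. Its fold change was 1.62, a log2 fold change of 0.70 (adjusted P = 0.00017, SE 0.048). Itga6 (Entrez Gene 16403, chr2:71786886-71858427), the laminin-binding alpha6 chain, stood at 36.6, 34.8 and 36.6 CPM in WT and at 53.1, 51.6 and 52.4 CPM in KD. The groups did not overlap, and the log2 fold change was 0.54 (SE 0.053, adjusted P = 0.000517). Both calls held under all 17 alternatives tried.

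The other receptor chains did not pass the test. Itgb5, the second most abundant beta chain and a partner of alphav, was at 35.3, 36.4 and 40.0 CPM in WT and at 35.3, 35.4 and 35.6 CPM in KD, with overlapping groups (log2 fold change -0.071, SE 0.064, adjusted P = 0.453). Itga3, a further laminin-binding chain, had 35.0, 29.8 and 28.8 CPM in WT and 28.9, 28.6 and 27.0 CPM in KD (log2 fold change -0.15, SE 0.083, adjusted P = 0.231). Itgav, the alphav chain that binds the RGD motif of fibronectin and other ligands, was at 20.5, 20.0 and 23.0 CPM in WT and 18.4, 16.8 and 18.5 CPM in KD. All 3 KD values of Itgav lay below those of WT, and the log2 fold change of -0.24 (SE 0.088) had an adjusted P of 0.079, or 0.0259 with the replicate block. Of the 4 RGD-binding alpha chains, 3 had a log2 fold change below 0, and none passed the test. Itga2b, a chain of platelets that was near 1 CPM here, differed by -0.97 on the log2 scale (adjusted P = 0.0678, SE 0.34, adjusted P with the block 0.0212). Itga9 differed by 0.46 on the log2 scale (adjusted P = 0.11, SE 0.19). It passed the test with the block (adjusted P = 0.0412) and without WT replicate 3 (adjusted P = 0.0373).

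The level of the beta1 chain relative to the alpha chains was examined on the TPM scale. The sum of alpha chains took in every alpha member, whichever beta chain it pairs with. Itgb1 divided by the sum of all alpha chains gave 0.899, 0.987 and 0.903 in WT and 1.38, 1.47 and 1.43 in KD. Every KD ratio was above every WT ratio. The ratio of Itga6 to Itgb1 averaged 0.304 ± 0.017 in WT and 0.273 ± 0.010 in KD (SD, n = 3), the ratio of Itga3 to Itgb1 0.327 ± 0.040 and 0.181 ± 0.0090, and that of Itgav to Itgb1 0.143 ± 0.013 and 0.0739 ± 0.0055. In each of these the KD libraries lay below the WT libraries. With 3 libraries per group the smallest two-sided P of an exact permutation test is 0.1, which each of these ratios had. The ratios of Itga2, Itga4 and Itga9 to Itgb1 overlapped between groups. All these ratios hold Itgb1, itself called higher, so they are not evidence apart from that call. The summed level of all integrin chains was 125 ± 4.62 TPM in WT and 157 ± 3.00 TPM in KD. Within that sum, Itgb1 averaged 42.2 TPM in WT and 71.0 TPM in KD, and Itga6 12.8 and 19.3 TPM. Of the 17 chains tested, 8 had a log2 fold change above 0 and 9 below, so the sum does not stand for the class.

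None of the 10 laminin chains tested passed the threshold. Laminins are trimers of an alpha, a beta and a gamma chain and are the ligands of the alpha6 and alpha3 integrins. Lamc1, the common gamma chain, was at 55.8, 53.9 and 58.1 CPM in WT and 61.7, 61.7 and 62.3 CPM in KD. The KD values were all above those of WT by a small margin (log2 fold change 0.15, SE 0.052, adjusted P = 0.0697), and the chain passed the threshold without WT replicate 3 (adjusted P = 0.0496). Lamb1 had 16.1, 19.4 and 24.6 CPM in WT and 18.8, 25.9 and 27.8 CPM in KD, each KD library above the WT library of its number although the groups overlapped. Its log2 fold change was 0.27 (SE 0.18) with an adjusted P of 0.3, or 0.0136 with the replicate block.

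Lamb2 was at 14.7, 14.9 and 17.2 CPM in WT and 20.2, 15.9 and 17.9 CPM in KD (log2 fold change 0.21, SE 0.11, adjusted P = 0.215). Lama2, the alpha chain of muscle and vessel basement membranes, differed by 0.54 on the log2 scale (adjusted P = 0.128, SE 0.24). It passed the threshold with the block (adjusted P = 0.00505) and without WT replicate 3 (adjusted P = 0.00889). The summed laminin level was 38.4 ± 3.72 TPM in WT and 44.2 ± 0.503 TPM in KD.

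Type IV collagen chains formed the part of the collagen class with the most calls: of 5 basement membrane and network collagens tested, 3 rose (Col4a2, Col4a5 and Col4a6). The genes of these chains lie in head-to-head pairs that are read outward from a common start region, Col4a1 with Col4a2 on chromosome 8 and Col4a6 with Col4a5 on chromosome X. The annotated starts of Col4a1 and Col4a2 are 21 bases apart, whereas those of Col4a6 and Col4a5 are 1343 bases apart. The promoter windows of the 4 genes (RefSeq, GRCm38.p6, from 250 bases before to 50 after the start, 5′ to 3′ on the strand of the gene) are printed because Col4a1 and Col4a2, whose windows overlap, differed in their calls, with those of Col4a5 and Col4a6 for comparison, and capitals mark the CCAAT box, the GC box (GGGCGG) and the TATA box (TATAAA) on either strand. They are Col4a1 at chr8:11312777-11313076 (minus strand), Col4a2 at chr8:11312555-11312854 (plus strand), Col4a6 at chrX:141474027-141474326 (minus strand) and Col4a5 at chrX:141475169-141475468 (plus strand).
Col4a1: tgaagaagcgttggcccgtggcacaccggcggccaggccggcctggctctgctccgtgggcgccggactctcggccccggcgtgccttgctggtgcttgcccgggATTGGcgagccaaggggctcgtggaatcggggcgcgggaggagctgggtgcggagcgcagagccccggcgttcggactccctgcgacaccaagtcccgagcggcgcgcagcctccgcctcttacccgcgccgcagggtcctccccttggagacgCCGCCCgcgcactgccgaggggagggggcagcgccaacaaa
Col4a2: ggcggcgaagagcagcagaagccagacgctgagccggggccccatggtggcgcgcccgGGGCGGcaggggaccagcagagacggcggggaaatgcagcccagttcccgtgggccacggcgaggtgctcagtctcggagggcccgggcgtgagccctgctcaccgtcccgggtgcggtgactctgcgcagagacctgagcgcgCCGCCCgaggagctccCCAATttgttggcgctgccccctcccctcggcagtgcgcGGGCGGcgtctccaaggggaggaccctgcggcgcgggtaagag
Col4a6: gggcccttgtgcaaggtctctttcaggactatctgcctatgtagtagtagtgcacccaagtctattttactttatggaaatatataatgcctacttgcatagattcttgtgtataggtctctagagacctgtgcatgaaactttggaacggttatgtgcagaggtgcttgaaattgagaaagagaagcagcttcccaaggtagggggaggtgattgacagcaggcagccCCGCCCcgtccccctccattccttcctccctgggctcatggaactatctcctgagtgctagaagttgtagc
Col4a5: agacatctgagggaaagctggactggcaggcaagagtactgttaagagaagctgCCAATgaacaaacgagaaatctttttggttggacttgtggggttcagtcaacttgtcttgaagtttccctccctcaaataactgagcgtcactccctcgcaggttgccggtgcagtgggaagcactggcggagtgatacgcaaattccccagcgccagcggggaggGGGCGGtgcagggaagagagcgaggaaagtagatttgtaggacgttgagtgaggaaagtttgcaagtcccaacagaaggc

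The windows of Col4a1 and Col4a2 share 78 bases and are rich in G and C (74.0% and 73.7%), whereas those of Col4a5 and Col4a6 share none and hold 52.7% and 48.3%. GGGCGG, the GC box, occurred 1, 3, 1 and 1 times in the windows of Col4a1, Col4a2, Col4a5 and Col4a6. CCAAT occurred once in each except that of Col4a6, and TATAAA in none. Among the windows of all annotated genes (32851 windows), 35.7% held GGGCGG, 37.4% CCAAT and 13.6% TATAAA, against 58.1%, 25.7% and 10.8% of the 74 windows found for 66 of the members. CTGATTGG, the letters after which the Y-box proteins were named and which hold CCAAT on the other strand, was in 1 member window (1.35%), against 4.10% of all windows, and in none of the 4 printed here. Both strands were searched.

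Of the Col4a1 and Col4a2 pair, Col4a2 was called and Col4a1 was not. Col4a2 (Entrez Gene 12827, chr8:11312805-11449287) was at 46.1, 47.1 and 55.6 CPM in WT and 65.5, 66.4 and 66.7 CPM in KD, with every KD library above every WT library. Its log2 fold change was 0.42 (SE 0.074, adjusted P = 0.00545). Col4a1 (Entrez Gene 12826, chr8:11198423-11312889) was at 38.1, 41.8 and 56.7 CPM in WT and 37.2, 40.3 and 45.9 CPM in KD. Its groups overlapped and the log2 fold change was -0.15 (SE 0.14, adjusted P = 0.489).

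The protein of these genes assembles as a trimer of alpha1 and alpha2 chains. The ratio of Col4a1 to Col4a2 in TPM was 0.818, 0.874 and 1.003 in WT and 0.559, 0.600 and 0.680 in KD. The ratios did not overlap, and the exact two-sided permutation P was 0.1, the smallest that this number of libraries allows, so the difference between the genes could not reach the threshold by this test. The exons of Col4a1 share 0.295% of their length with Col4a2, and those of Col4a2 share 0.982% with Col4a1 and Gm15419. The part of shared reads in either count was not tested.

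The chromosome X pair rose together. Col4a6 (Entrez Gene 94216, chrX:141165403-141474095) had 1.64, 0.864 and 1.68 CPM in WT and 4.87, 4.64 and 4.67 CPM in KD. This was the largest log2 fold change of the called members, 1.75 (SE 0.23, adjusted P = 0.00154). Col4a5 (Entrez Gene 12830, chrX:141475370-141689236), whose chain joins that of Col4a6 in some basement membranes, had 8.80, 9.44 and 11.6 CPM in WT and 18.5, 14.6 and 15.6 CPM in KD (log2 fold change 0.70, SE 0.14, adjusted P = 0.00783). The groups of neither gene overlapped. The ratio of Col4a5 to Col4a6 in TPM was 5.19, 10.6 and 6.75 in WT and 3.81, 3.04 and 3.29 in KD. It averaged 7.53 ± 2.81 in WT and 3.38 ± 0.396 in KD, with an exact two-sided permutation P of 0.1. The WT ratios rest on only 27, 14 and 27 estimated counts of Col4a6.

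Of 9 fibrillar collagens tested, 2 rose, both chains of type XI collagen, which nucleates thin fibrils. Col11a1 was at 9.71, 9.57 and 10.1 CPM in WT and 15.7, 14.1 and 13.6 CPM in KD, with no overlap (log2 fold change 0.56, SE 0.10, adjusted P = 0.00572). Col11a2 was at 14.3, 13.3 and 15.1 CPM in WT and 19.7, 20.5 and 18.9 CPM in KD (log2 fold change 0.47, SE 0.087, adjusted P = 0.00669). The ratio of the chains overlapped between groups, with means of 0.573 in WT and 0.598 in KD.

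Removal of the replicate 2 pair left 4 of the 15 called members past the threshold: Itgb1, Itga6, Col4a6 and Sparc. Without that pair the adjusted P was 0.112 for Col4a2, 0.0872 for Col4a5, 0.0953 for Col11a1, 0.122 for Col11a2, 0.0548 for Fn1 and 0.116 for Tnc, while the log2 fold changes lay at 0.38, 0.74, 0.57, 0.39, 0.66 and 0.51. Called genes over the whole table then numbered 135 higher and 93 lower, against 1646 and 1631 with all 6 libraries.

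The remaining 5 collagen calls were closer to the threshold. With 1 library left out, calls over all genes fell to between 779 and 1612 higher and between 797 and 1583 lower. With all 6 libraries there were 1646 and 1631. Col22a1, a fibril-associated collagen, was at 3.52, 1.79 and 2.18 CPM in WT and 6.07, 4.70 and 3.76 CPM in KD (log2 fold change 0.95, SE 0.27, adjusted P = 0.0346). Its call was lost without WT replicate 2 (adjusted P = 0.118), WT replicate 3 (0.0857), KD replicate 1 (0.103) or KD replicate 2 (0.0867), and its estimated counts were fractional in 2 libraries. Col28a1, a collagen of peripheral nerve, was at 0.243, 0.432 and 0.623 CPM in WT and 1.02, 1.10 and 1.64 CPM in KD, which are low counts (log2 fold change 1.52, SE 0.38, adjusted P = 0.0218). Col6a5, a chain of beaded-filament collagen, was as low (log2 fold change 1.04, SE 0.31, adjusted P = 0.0407). Col28a1 lost its call without WT replicate 1 (adjusted P = 0.0635), WT replicate 2 (0.0731), KD replicate 2 (0.051) or KD replicate 3 (0.0695). Col6a5 lost its call without the same libraries, at adjusted P values of 0.111, 0.127, 0.0949 and 0.125.

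Both falling members were collagens. Col26a1, a collagen also known as Emid2, was at 13.6, 12.7 and 17.2 CPM in WT and 9.56, 7.50 and 11.0 CPM in KD, with no overlap (log2 fold change -0.63, SE 0.17, adjusted P = 0.0262). The call was lost without WT replicate 3 (adjusted P = 0.0677), KD replicate 1 (0.057) or KD replicate 2 (0.0842). Col9a3, a fibril-associated collagen of cartilage, was at 9.17, 9.999 and 7.60 CPM in WT and 7.03, 6.65 and 5.70 CPM in KD (log2 fold change -0.47, SE 0.14, adjusted P = 0.0452). Its call was lost without WT replicate 1 (adjusted P = 0.0992), WT replicate 2 (0.154), KD replicate 1 (0.061), KD replicate 2 (0.107) or KD replicate 3 (0.133). The exons of Col9a3 share 6.07% of their length with Tcfl5, and whether the counting used strand is not stated, so reads of these genes may not be told apart there.

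Collagen calls thus came to 8 higher (22.2%) and 2 lower (5.56%) of 36 tested, with a median log2 fold change of 0.081. Over all genes tested, 12% were higher and 11.9% lower. In either direction, 27.8% of the collagens were called, beside 24.0% of all genes. Whether the collagens or the smaller collagen groups above differed from all genes in these shares was not tested. Col25a1, the third most abundant collagen, was at 42.9, 33.5 and 34.5 CPM in WT and 42.7, 39.6 and 31.8 CPM in KD (log2 fold change 0.040, SE 0.12, adjusted P = 0.845). The block added Col20a1 (log2 fold change 0.31, adjusted P = 0.0152), Col23a1 (0.22, 0.035) and Col27a1 (0.58, 0.0105) to the higher collagens. It added Col16a1 (-0.33, 0.0313), Col5a3 (-0.92, 0.00376) and Col6a1 (-0.34, 0.0347) to the lower ones. Summed over all collagens, the level was 120 ± 10.5 TPM in WT and 132 ± 1.46 TPM in KD.

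**Figure D3:**
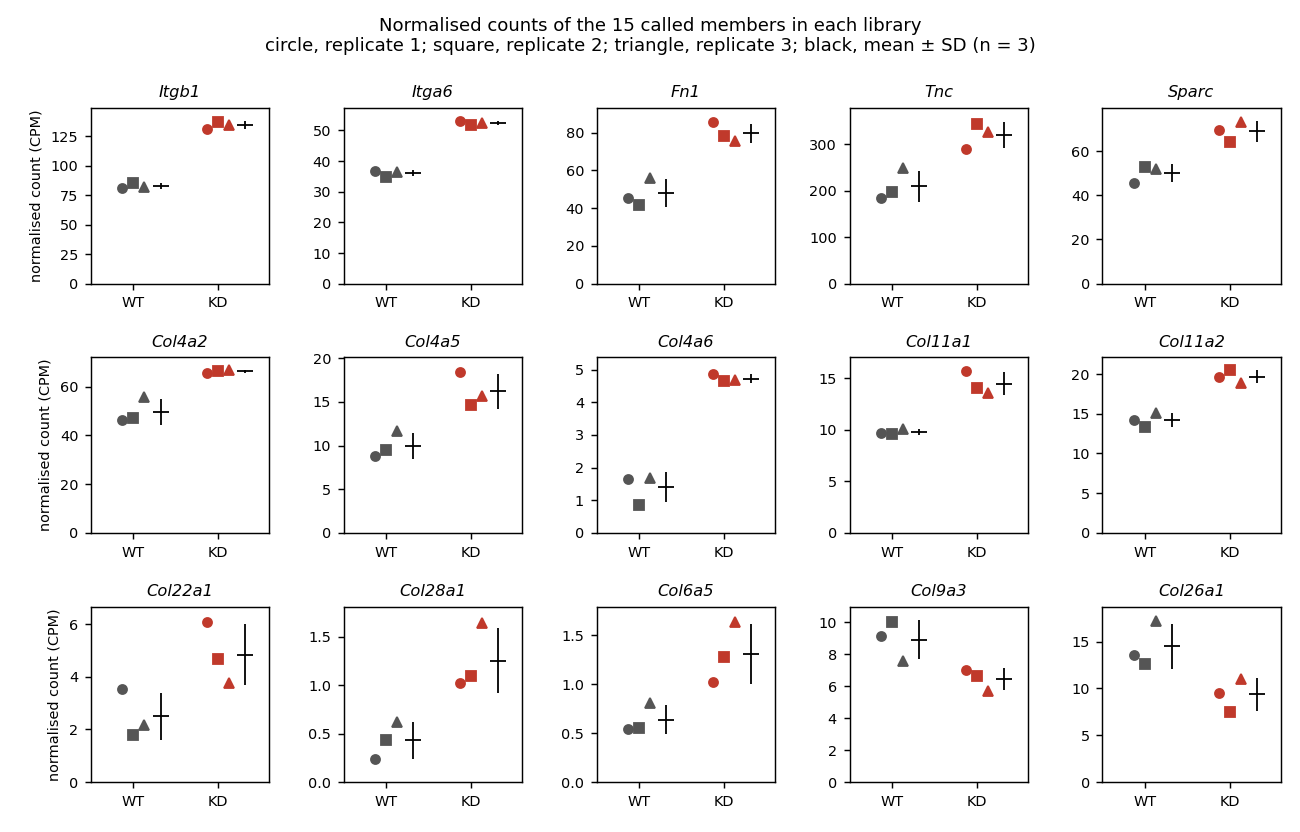
Normalised counts (CPM, axes from 0) of the 15 called members in each library, WT in grey and KD in red, with the mean and SD of 3 libraries in black. The groups overlap in none of the 15 panels, and the gap is widest relative to the spread in Itgb1 and Itga6.

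Among the 10 other matrix genes, the 3 grouped here as glycoproteins (Fn1, Tnc and Sparc) rose. The grouping leaves out the nidogens, which are given below with the linkers and were not called. It does not stand for matrix glycoproteins as a class: of 46 further glycoproteins and proteoglycans tested, 2 rose and 5 fell. Fn1 (Entrez Gene 14268, chr1:71585473-71653280), fibronectin, a ligand of RGD-binding integrins, was at 45.5, 41.9 and 56.1 CPM in WT and 85.4, 78.0 and 75.6 CPM in KD (log2 fold change 0.74, adjusted P = 0.00193, SE 0.10). Tnc (Entrez Gene 21923, chr4:63959785-64047015), a glycoprotein of the neural stem cell niche, was at 184, 197 and 248 CPM in WT and 289, 344 and 326 CPM in KD. Its log2 fold change was 0.61 (SE 0.11, adjusted P = 0.0053). Sparc (Entrez Gene 20692, chr11:55394159-55420080), which binds collagen and modulates adhesion, was at 45.5, 53.0 and 51.7 CPM in WT and 69.3, 64.0 and 73.3 CPM in KD (log2 fold change 0.46, SE 0.075, adjusted P = 0.00386). Groups overlapped for none of the 3 genes. Exons of Fn1 and Tnc share 2.50% and 2.26% of their length with other annotated genes (Apol7d and 8030451A03Rik).

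The lecticans, large proteoglycans that bind hyaluronan, passed in no case. Ncan was at 732, 946 and 1016 CPM in WT and 833, 897 and 921 CPM in KD, and the lowest and the highest libraries were both WT (log2 fold change -0.023, SE 0.11, adjusted P = 0.895). Vcan was at 264, 311 and 375 CPM in WT and 276, 329 and 339 CPM in KD (log2 fold change -0.0092, SE 0.12, adjusted P = 0.964). Bcan was at 146, 191 and 244 CPM in WT and 139, 162 and 192 CPM in KD, lower than WT within each pair although the groups overlapped. Its log2 fold change was -0.24 (SE 0.17) with an adjusted P of 0.347, or 0.00522 with the replicate block.

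The 4 linkers and heparan sulfate proteoglycans of basement membranes were not called either. Agrn was at 339, 345 and 394 CPM in WT and 364, 369 and 373 CPM in KD (log2 fold change 0.037, SE 0.060, adjusted P = 0.693). Hspg2 (perlecan) was at 14.6, 11.2 and 15.4 CPM in WT and 16.7, 14.5 and 11.7 CPM in KD (log2 fold change 0.056, SE 0.16, adjusted P = 0.828). The groups of both genes overlapped. The nidogens, which join laminin to type IV collagen, lay on either side of 0 and were less certain, because estimated counts of Nid2 were fractional in all 6 libraries and those of Nid1 in 2. Nid1 was at 4.86, 2.16 and 2.37 CPM in WT and 5.59, 2.44 and 3.27 CPM in KD (log2 fold change 0.27, SE 0.37, adjusted P = 0.64). Nid2 was at 4.07, 3.83 and 4.05 CPM in WT and 3.01, 3.66 and 3.82 CPM in KD (log2 fold change -0.19, SE 0.16, adjusted P = 0.415).

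**Figure D4:**
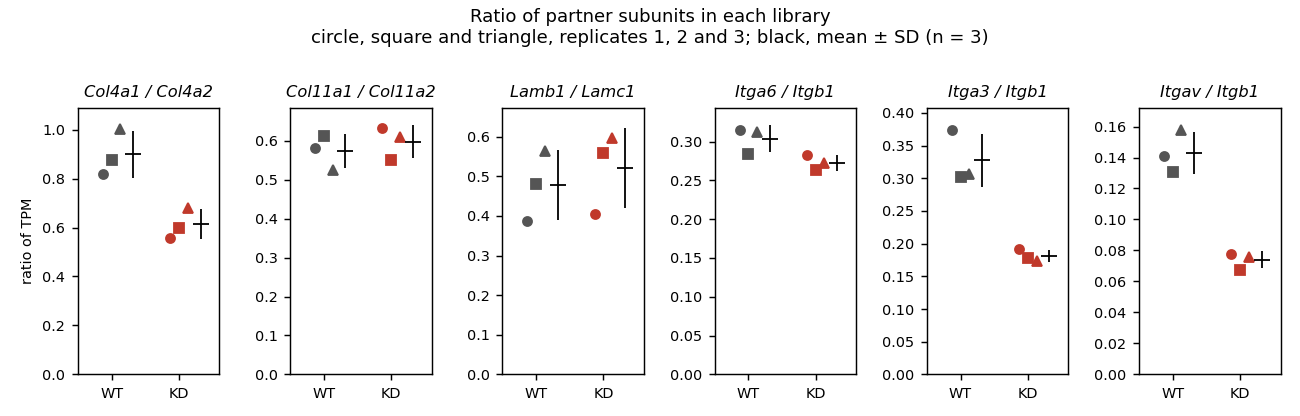
Ratio of the TPM of partner chains in each library, WT in grey and KD in red, with the mean and SD of 3 libraries in black and axes from 0. Col4a1 over Col4a2 and the plotted alpha chains (Itga6, Itga3 and Itgav) over Itgb1 are lower in all KD libraries, whereas Col11a1 over Col11a2 and Lamb1 over Lamc1 overlap between groups.

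Among the classes, other matrix genes had 3 of 10 called (30.0%), integrins 2 of 17 (11.8%), collagens 10 of 36 (27.8%) and laminins 0 of 10. Of all genes tested, 24.0% were called. The median log2 fold changes were 0.046, -0.043, 0.081 and 0.18 in that order. Laminins thus had the highest median with no call. No test of a difference between the classes was made. The 3 tested genes taken in by spelling only were not called, and Itgb3bp, a centromere protein gene, differed by 0.48 on the log2 scale (adjusted P = 0.0676, SE 0.17, adjusted P with the block 0.0337).

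Genes that act on the matrix were counted from lists. Of 28 collagen processing enzymes tested, 4 rose and 2 fell (21.4% called, beside 24.0% of all genes), with a median log2 fold change of 0.10. The largest changes among the called genes were those of the prolyl hydroxylases P4ha2 (0.59) and P4ha3 (0.40), the cross-linking enzyme Loxl1 (0.54) and the lysyl hydroxylase Plod1 (-0.39). Each of these 4 calls was lost on removal of some single libraries, which also lowered the number of calls over all genes. P4ha2 lost its call without WT replicates 1 or 2 or KD replicates 1 or 3, with an adjusted P of up to 0.102. P4ha3 (up to 0.117) and Loxl1 (up to 0.144) lost it without any library but WT replicate 3, and Plod1 without replicate 2 of WT or KD (up to 0.0629).

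Of 35 adhesome genes, which couple integrins to actin, 6 rose and 2 fell (22.9% called, near the 24.0% of all genes, median 0.081). Nck2 (log2 fold change 0.73), an adaptor that binds Pinch proteins, and Tns3 (0.50), a tensin, rose, while Lims2 (-0.71), a Pinch protein, and Tgfb1i1 (-0.71), known as Hic-5, fell. Lims2 lost its call without replicates 2 or 3 of either group (adjusted P up to 0.0875), and Tgfb1i1 without any library but WT replicate 3 (up to 0.135). Of 25 other matrix receptors, 7 rose and 6 fell (52.0% called, beside 24.0% of all genes, median 0.047). They included the glypicans Gpc5 (0.86) and Gpc6 (0.67) and the hyaluronan receptor Hmmr (0.73) among those that rose. Rpsa, a ribosomal protein also known as a laminin receptor, fell by 0.60 on the log2 scale (SE 0.037, adjusted P = 0.000123). Gpc5 lost its call without any library but WT replicate 3 (adjusted P up to 0.157), and Hmmr without KD replicates 1 or 3 or WT replicates 2 or 3 (up to 0.101).

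Of 46 further glycoproteins and proteoglycans, 2 rose and 5 fell (15.2% called, beside 24.0% of all genes, median -0.015). Tnn (tenascin N, -1.59), the hyaluronan synthase Has3 (-0.73) and the link protein Hapln1 (-0.69) fell, and the microfibril protein Mfap2 (0.54) rose. Tnn lost its call without replicates 1 or 2 of WT or 2 or 3 of KD (adjusted P up to 0.0883), Has3 without WT replicate 2 or KD replicates 2 or 3 (up to 0.0664), and Hapln1 without replicates 1 or 2 of either group (up to 0.118). Of 26 proteases and inhibitors, 1 rose, Adamts18 (0.79), and 5 fell (23.1% called, near the 24.0% of all genes, median -0.056). The inhibitor Timp2 (-0.74) had the largest fall among the called genes, ahead of Serpine2 (-0.46) and the membrane protease Mmp16 (-0.31). Serpine2 lost its call without WT replicates 2 or 3 or KD replicates 1 or 2 (adjusted P up to 0.094), and Mmp16 without WT replicates 2 or 3 or KD replicates 1 or 3 (up to 0.139). Of 5 integrin chains outside the symbol pattern, 1 was tested and was not called.

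Removal of the replicate 2 pair left 0 of the 6 called collagen processing enzymes past the threshold, 1 of the 8 called adhesome genes (Nck2), 2 of the 13 other matrix receptors (Rpsa and Sdc3), 1 of the 7 further glycoproteins and proteoglycans (Spock2) and 0 of the 6 proteases and inhibitors. Sdc3 and Spock2 are named because their values without the pair were seen. For the genes named above that had kept their call without any single library but lost it here, the adjusted P was then 0.121 for Tns3, 0.0659 for Gpc6, 0.0843 for Mfap2, 0.138 for Adamts18 and 0.0733 for Timp2.

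Cells of vessels and meninges make much matrix, so their markers and those of other cells outside the neural lineage were examined. In bulk RNA, fewer cells of a type and less RNA per cell cannot be told apart. The 10 endothelial markers summed to 8.77 to 9.71 TPM in WT and 8.47 to 9.28 TPM in KD, with 0 of 4 tested called. Of these markers, Cdh5, Tie1, Cldn5 and Emcn had at most 1 estimated count in any library. Flt1 and Tek also failed the filter on low counts, whereas Pecam1, Kdr, Esam and Egfl7 passed it. The list therefore does not show that endothelial cells were absent. Mural markers summed to 14.2 to 19.7 TPM in WT and 13.52 to 18.55 TPM in KD, with 1 of 5 higher (Pdgfrb) and 1 lower (Cspg4). The log2 fold change was 0.72 for Pdgfrb (adjusted P = 0.0318) and -0.54 for Cspg4 (adjusted P = 0.00994). Some lists share genes and are not separate readings. Cspg4 is also counted with the oligodendrocyte precursor markers and the other matrix receptors. Pdgfra stands in both the meningeal fibroblast and the oligodendrocyte precursor lists. Meningeal fibroblast markers summed to 35.3 to 60.5 and 41.6 to 59.9 TPM (0 of 3 called), and microglia markers to 6.90 to 13.45 and 7.41 to 9.72 TPM (0 of 2 called). Choroid plexus markers summed to 1.65 to 3.22 TPM in WT and 3.51 to 8.63 TPM in KD. The groups did not overlap in TPM but did in CPM (1.68 to 3.64 in WT, 3.60 to 9.02 in KD). Of the 2 tested, Otx2 was higher and the other was not called.

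Markers of the neural lineage were examined in the same way. Radial glia markers summed to 3105 to 3487 TPM in WT and 3553 to 3837 TPM in KD. On the CPM scale their sums overlapped, at 1418 to 1560 CPM in WT and 1506 to 1719 CPM in KD. Of the 10, 3 rose (Pax6, Hes1 and Pdpn, 30.0%). Intermediate progenitor markers summed to 175 to 196 TPM in WT and 247 to 285 TPM in KD, with 4 of 7 tested higher (57.1%). Of 10 neuron markers 2 rose (20.0%) and 2 fell (20.0%), and of 6 astrocyte markers none was called. Of 6 oligodendrocyte precursor markers 2 fell (Olig1 and Cspg4, 33.3%). Without the replicate 2 pair, 0 of the 3 radial glia and 2 of the 4 intermediate progenitor calls were left, and none of the neuron, oligodendrocyte precursor, mural and choroid plexus calls. Radial glia express Itgb1, Itga6 and Tnc, and whether the marker differences had a part in the matrix and integrin values was not tested.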

How the data were processed

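The sample titles gave each library its group and number, and the columns called Ctrl 1 to 3 were matched to WT replicates 1 to 3. The submitters' processing notes name HISAT2 2.2.1, Bowtie2 2.4.5 and RSEM 1.3.1 and the build GRCm38 (mm10); the annotation and the use of strand are not given in the sources used here. The authors deposited an estimated count per gene (an expected count, not normalised). The TPM values deposited by the authors are scaled by transcript length and to a fixed sum per library. Between 89.3% and 89.9% of the estimated counts in a library were whole numbers. The 12 columns of FPKM values and group means deposited by the authors were not used. The 90 members were matched to RefSeq by Entrez Gene number, and all had a match.

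After rounding, each estimated count entered edgeR 4.0.16 (R 4.3.3), with filterByExpr at a minimum count of 10, TMM scaling and the quasi-likelihood test of KD over WT (Benjamini-Hochberg adjustment over 13669 genes, threshold 0.05). Whole counts had been assumed when the test was chosen, and it was not changed. Dividing the size of the log2 fold change by the square root of F gave the SE. The biological coefficient of variation was 7.69%, and libraries of a group differed by 4.43 to 8.66 chi-square units per degree of freedom, more than sampling noise. Deviations from the group means, correlated over genes, reached 0.227 to 0.414 between same-numbered libraries and -0.303 to -0.024 between others, so the numbers pair the libraries. The series text mentions 3 sequencing batches over the replicates. The unpaired fit was the principal one, and a fit blocked by that number is given where it differs.

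Alternatives used other scalings and filters, DESeq2 1.42.0, limma 3.58.1 on counts and on log2(TPM + 1), the block, each library or the second pair left out, and a threshold of 0.01. The script was tested on simulated counts. Members and lists were chosen with earlier results of these data known. Values per library are given for up to 6 called members with the smallest adjusted P and the 3 with the highest TPM in each class, for a set fixed by name, and for the 4 largest called changes of each other list as fold changes. Itga3, Itga2b, Itga9, Lama2, Itgb3bp and the collagens added by the block were named after their values were seen. Values of 1 member are not reported here.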

Additional observations from a re-analysis of the deposited data

How the results depend on the processing

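Itgb1, Itga6, Col4a6 and Sparc stayed past the threshold in the same direction under all 17 alternatives. Over all alternatives and single genes named, 136 values lost their call, 20 gained one and 21 changed sign, and none of those that changed sign belonged to a called gene.

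The members called higher, 13 with all libraries, became 20 with the replicate block and 4 without the second pair. The members called lower, 2 with all libraries, became 1 with total count scaling, no filter, DESeq2 or limma-trend on log2(TPM + 1), 9 with the block, and 0 without the second pair or at an adjusted P of 0.01, and lay between 0 and 1 when a single library was left out. The member median of 0.078 became 0.057 with upper quartile scaling, 0.10 with total count scaling, 0.053 with no filter and 0.057 without the second pair, and ranged from 0.022 to 0.12 when a single library was left out. The cause of these shifts was not tested.

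For collagens, the 8 higher calls became 5 at an adjusted P of 0.01, 1 without the second pair and 5 to 7 with a single library left out. Their 2 lower calls became 1 with total count scaling, no filter, DESeq2 or limma-trend, 5 with the block, 0 without the second pair or at 0.01, and 0 to 1 with a single library left out. Laminins had 1 higher call with total count scaling (Lamc1), 2 higher and 1 lower with the block, and 0 to 2 higher with a single library left out, when their median ranged from 0.11 to 0.19. Integrins had 2 lower calls with the block. The integrin median was -0.064 with upper quartile scaling, -0.021 with total count scaling, 0.0045 on log2(TPM + 1) and -0.088 without the second pair, and ranged from -0.11 to -0.016 with a single library left out. Other matrix genes had 1 lower call with the block and 1 higher call without the second pair, and their median ranged from 0.012 to 0.12 with a single library left out.

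Among genes that were not called, the log2 fold change crossed 0 without the second pair for Col25a1 (-0.056), Hspg2 (-0.082) and Ncan (0.0046). It crossed 0 on log2(TPM + 1) for Itgb5 (0.0045), Ncan (0.040) and Vcan (0.088), and for Vcan also with total count scaling (0.013) and limma-voom (0.00013). With a single library left out, it ranged from -0.0030 to 0.11 for Agrn, -0.052 to 0.16 for Col25a1, -0.26 to 0.044 for Col4a1, -0.070 to 0.18 for Hspg2, -0.15 to 0.075 for Ncan, -0.13 to 0.74 for Nid1 and -0.12 to 0.13 for Vcan. Of all calls in the table, 50.2% were higher with TMM, 43.0% with upper quartile scaling, 57.9% with total count scaling and 65.9% on log2(TPM + 1). Leaving out the second pair keeps 2 libraries per group, and depth limits the collagens near 1 CPM.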
